A study of Tachysurus ussuriensis with 12 samples.

Results

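The transcripts described here are those whose level changed differently in kidney and in gill over the first 24 h of acute salinity stress, from 0 h on, in the Ussuri catfish (Tachysurus ussuriensis), a freshwater bagrid catfish. For each assembled transcript the kidney change (24 h minus 0 h) was compared with the gill change, and transcripts were taken where the difference between these changes passed the test. Of 84875 transcripts in all, 75716 reached FPKM 1 in 3 or more libraries and were tested, and 38 were called. FPKM is a fragment count divided by transcript length and by the mapped total of its library, so that levels can be compared between transcripts. The 12 libraries form 4 groups of 3: gill at 0 h, gill at 24 h, kidney at 0 h and kidney at 24 h. The labels name no genotype, age, salinity or source of the individual samples. Whether the 3 libraries of a group came from separate fish is not given, so the p-values measure only the spread among these libraries, part of which may be technical. No unstressed fish were sampled at 24 h in the libraries analysed here, so a response to salinity and other changes over 24 h cannot be told apart.

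Gill and kidney hold the salt and water balance of a freshwater fish from opposite sides. The gill epithelium takes up ions from dilute water through ionocytes, and when fish meet saltier water its ion transport is remodelled. The kidney of a freshwater fish excretes the water that enters by osmosis as dilute urine and reabsorbs ions along its tubules, so that the demands on both organs change when the outside water becomes saltier. The transcript IDs carry no gene names in the files, so neither a function nor a cell type can be given for any transcript below, and the labelled tissues could not be checked against defining markers. No sequence is shown because none of the files used here holds one.

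The FPKM of a library summed to 631998 to 714003. Relative depth, estimated from the steps between low values, lay between 0.869 and 1.13 times the geometric mean of the libraries. Kidney 0 h replicate 2 stood apart from the other libraries: its median FPKM was 1.26 against 1.85 to 2.22 elsewhere, and it correlated at r = 0.816 to 0.838 with the other kidney libraries, while other libraries of the same group correlated at 0.897 to 0.913. The calls and the differences of the called transcripts are therefore also given without it. Group levels and most other counts are given with every library only.

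Differences between the tissues' changes were called in 38 transcripts, or 0.0502% of those tested, at a Benjamini-Hochberg adjusted p under 0.05 by limma. The kidney change was above the gill change in 26 of them (0.0343% of those tested) and below it in 12 (0.0158%). After median-ratio scaling of the libraries the split was 25 above and 20 below. In all 38 the change was called in 1 tissue and not in the other: 13 rose in kidney, 13 fell in gill, 8 rose in gill and 4 fell in kidney. These classes share libraries with the test that chose the transcripts and are a description. Over all tested transcripts 0.623% rose in kidney, 0.433% fell in gill, 0.415% rose in gill and 0.201% fell in kidney. The size of the difference, on the log2(FPKM + 1) scale, ran from 1.82 to 4.34 among those that rose in kidney, from 2.04 to 4.64 among those that fell in gill, from -3.62 to -1.38 among those that rose in gill and from -2.74 to -1.64 among those that fell in kidney. Over all tested transcripts the median difference was 0.09, and the middle 90% of differences lay between -0.83 and 1.13. In bulk tissue, fewer cells of a type and less RNA per cell cannot be told apart.

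**Figure D1:**
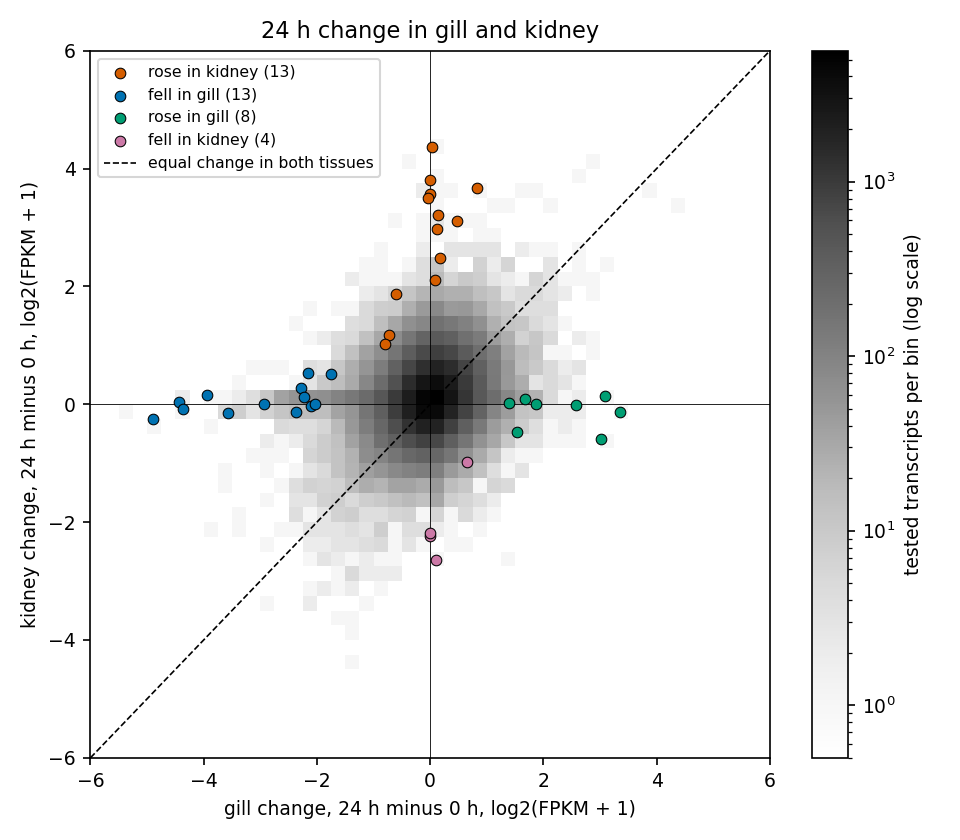
Gill change (horizontal axis) against kidney change (vertical axis) of each transcript, 24 h minus 0 h on the log2(FPKM + 1) scale. Grey shading counts the 75716 tested transcripts per bin, coloured points are the 38 called transcripts by class, and on the dashed line both tissues change alike. Most called transcripts lie near 1 of the 2 zero lines, and 7 of the 38 have changes of opposite sign that are both of at least 0.5.

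The 13 transcripts that rose in kidney had a median kidney change of 3.11 on the log2 scale and a median gill change of 0.03. The largest difference was that of TRINITY_DN35749_c0_g1_i1_4. Its FPKM was 116, 62.0 and 48.0 in kidney replicates 1 to 3 at 24 h, and 0.594, 4.16 and 3.95 in kidney at 0 h. In gill it was 0, 0.111 and 0 at 0 h and 0, 0.108 and 0.0778 at 24 h. The kidney libraries of the 2 times did not overlap, and no gill library reached an FPKM of 0.2. The kidney change lay above the gill change by 4.34 (SE 0.60; limma adjusted p = 0.0443), and without kidney 0 h replicate 2 by 4.63 (SE 0.61; adjusted p = 0.0310).

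Most of these transcripts were near 0 in gill: 8 of the 13 stayed below an FPKM of 1 in all 6 gill libraries, as did 7.32% of all tested transcripts. The second in rank was listed at 0 in every gill library and in kidney 0 h replicates 1 and 3, was 0.399 in kidney 0 h replicate 2, and reached 27.0, 15.8 and 7.08 FPKM in kidney at 24 h. Only the 3 kidney libraries of 24 h reached FPKM 1, and without all 3 it would not have been tested (difference 3.80, SE 0.52; limma adjusted p = 0.0427). The third in rank had 1.02, 1.67 and 2.08 FPKM in kidney at 0 h and 55.1, 24.7 and 17.9 at 24 h, with at most 0.0149 in any gill library (difference 3.57, SE 0.48; limma adjusted p = 0.0427).

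The seventh in rank was different, because gill carried it at a high level throughout. In gill its FPKM was 62.0, 44.2 and 35.8 at 0 h and 104, 51.1 and 106 at 24 h. In kidney it was listed at 0 in all 3 libraries of 0 h and was 11.5, 14.9 and 9.60 at 24 h. Kidney thus gained a transcript that gill held at both times, and still lay below gill at 24 h (kidney minus gill -2.71 on the log2 scale; limma adjusted p = 2.18e-05). Its difference of 2.85 (SE 0.40) had a limma adjusted p of 0.0453 with all 12 libraries and 0.0567 without kidney 0 h replicate 2.

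The last 2 in rank were abundant in both tissues, with fitted changes of opposite sign. The twelfth had 26.5, 23.9 and 24.6 FPKM in gill at 0 h and 15.5, 15.9 and 13.0 at 24 h, against 10.4, 7.58 and 13.3 and then 20.4, 26.9 and 26.7 in kidney. Gill lay above kidney at 0 h and kidney above gill at 24 h, with no overlap of the tissues' libraries at either time. The kidney rise was called (limma adjusted p = 0.0203), while the gill change of -0.72 was not (0.129). The thirteenth had 12.9 ± 1.07 and 6.99 ± 0.851 FPKM in gill, and 31.4 ± 6.90 and 64.3 ± 6.91 in kidney (SD, n = 3 each). Its kidney change was 1.03 and its gill change was -0.80 (limma adjusted p = 0.0237 and 0.0623). Kidney held more of it than gill at both times, and the gap widened from 1.21 to 3.03 on the log2 scale.

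**Figure D2:**
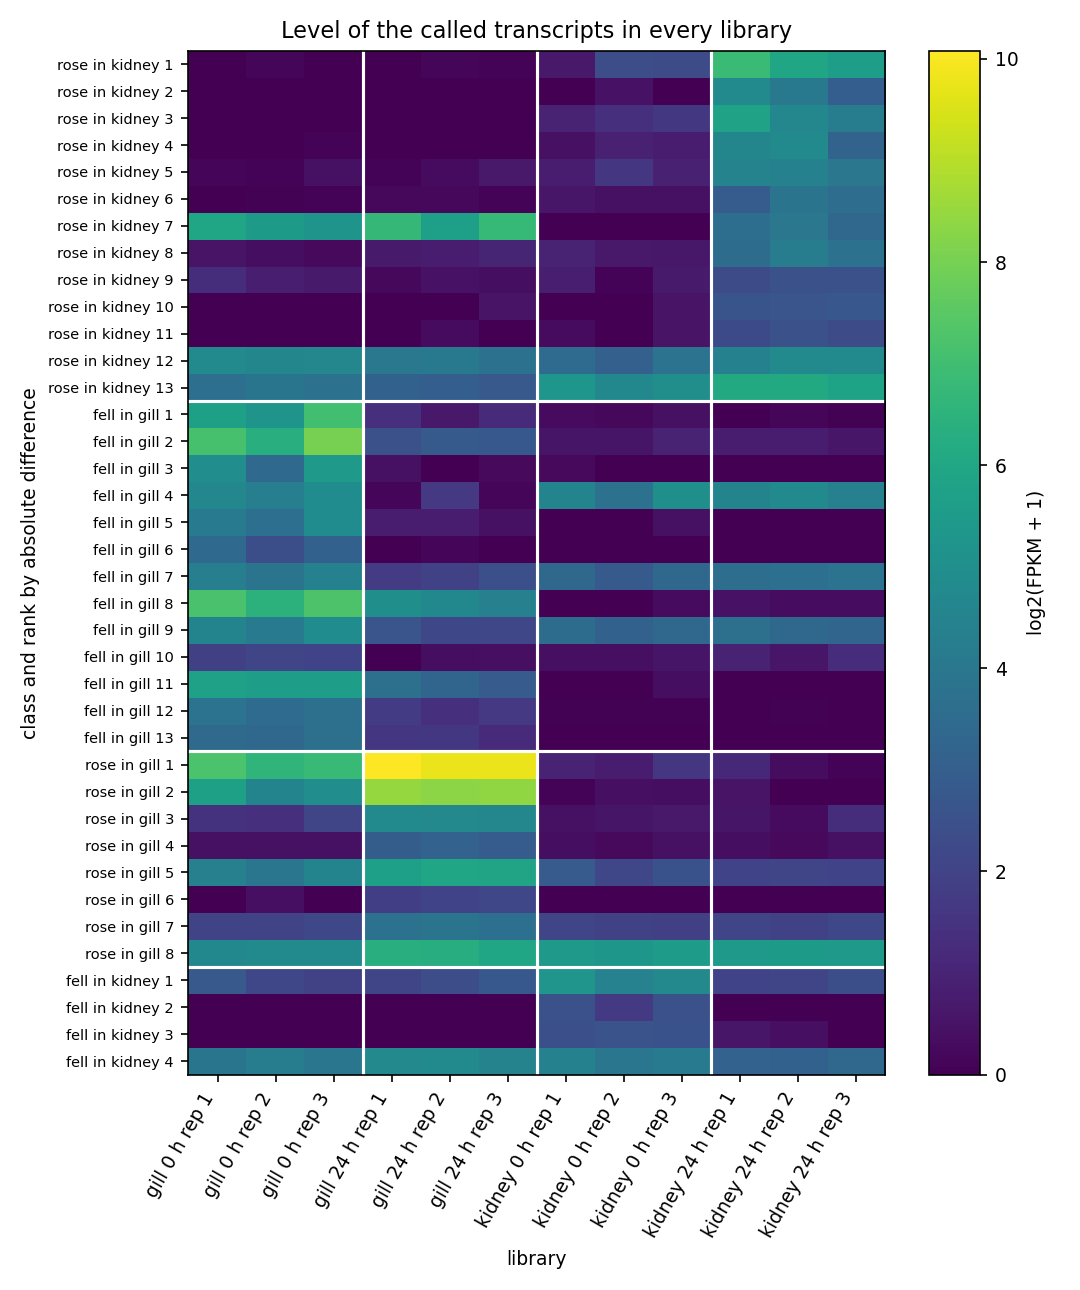
Level of the 38 called transcripts (rows, by class and by rank of the absolute difference) in each of the 12 libraries (columns), as log2(FPKM + 1). Among transcripts that fell in gill or rose in kidney, the other tissue is dark in most rows, which marks an FPKM near 0; rows that are bright in all 4 blocks are the few transcripts abundant in both tissues.

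The 13 transcripts that fell in gill had a median gill change of -2.37 and a median kidney change of 0.00 on the log2 scale. TRINITY_DN25188_c0_g1_i8_2 had the largest difference of all 38. Its FPKM was 52.7, 36.6 and 130 in gill replicates 1 to 3 at 0 h and 1.56, 0.622 and 1.39 at 24 h. In kidney it was 0.236, 0.175 and 0.354 at 0 h and 0.0241, 0.0953 and 0.0281 at 24 h. Gill fell, and still lay above kidney in every library at 24 h (kidney minus gill -1.04 on the log2 scale), a difference that missed the threshold (limma adjusted p = 0.057). The kidney libraries of the 2 times did not overlap either, with lower values at 24 h, but their change of -0.26 was not called (limma adjusted p = 0.849). The kidney change exceeded the gill change by 4.64 (SE 0.53; limma adjusted p = 0.0291), and by 4.60 (SE 0.58; adjusted p = 0.0308) without kidney 0 h replicate 2.

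Kidney stayed below an FPKM of 1 in all 6 libraries for 9 of these 13, as it did for 9.53% of all tested transcripts. The second in rank went in gill from 140, 78.4 and 256 FPKM to 4.65, 6.21 and 5.94, with at most 0.984 in kidney (difference 4.47, SE 0.48; limma adjusted p = 0.0278). The third in rank went in gill from 27.4 ± 16.6 to 0.193 ± 0.193 FPKM (SD, n = 3 each), and was listed at 0 in 5 of 6 kidney libraries (difference 4.28, SE 0.58; limma adjusted p = 0.0427, and 0.0566 without kidney 0 h replicate 2). Only its 3 gill libraries of 0 h reached FPKM 1, and without all 3 it would not have been tested.

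The fourth in rank was held at overlapping levels by both tissues at 0 h and fell in gill to near 0. Its FPKM was 24.6, 18.9 and 28.7 in gill at 0 h and 22.1, 12.4 and 31.4 in kidney at 0 h. At 24 h it was 0.137, 2.22 and 0.138 in gill, and 22.2, 27.5 and 20.1 in kidney. The tissues overlapped at 0 h and lay apart at 24 h, when all gill libraries were at or below 2.22. The tissues were not called as different at 0 h (limma adjusted p = 0.771) but were at 24 h (1.94e-05), and the difference between the changes was 4.10 (SE 0.57; limma adjusted p = 0.0451; 3.75 and 0.0490 without kidney 0 h replicate 2). The seventh and ninth in rank turned the order of the tissues. The seventh fell in gill from 17.6 ± 3.55 to 3.20 ± 1.10 FPKM, with 8.27 ± 1.80 and 12.2 ± 0.929 in kidney (SD, n = 3 each). The ninth fell in gill from 23.0 ± 5.80 to 4.12 ± 1.07, with 9.32 ± 1.51 and 10.2 ± 1.70 in kidney (SD, n = 3 each). The tenth fell in gill from 3.06 ± 0.304 to 0.213 ± 0.185 FPKM, with 0.372 ± 0.0906 and 0.993 ± 0.433 in kidney (SD, n = 3 each). In each, gill lay above kidney at 0 h and below it at 24 h, and both tissue differences were called.

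Gill 0 h replicate 2 had the lowest FPKM of the 3 gill libraries of 0 h in 12 of the 13 transcripts that fell in gill, where 28.8% of all tested transcripts had their lowest gill 0 h value in that library. Its median distance to the mean of the other 2 was -0.53 on the log2 scale over these 13. Kidney 0 h replicate 2 was the lowest of its group in 19 of all 38, where the share over all tested transcripts was 57.5%. Among the 38 a tie, as at 0, went to the lower replicate number, so the count of 19 depends on ties.

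The 8 transcripts that rose in gill held the most abundant member. TRINITY_DN21043_c0_g1_i6_2 had an FPKM of 149, 95.4 and 109 in gill at 0 h and of 1082, 878 and 891 at 24 h. In kidney it was 0.966, 0.737 and 2.02 at 0 h and 1.22, 0.249 and 0.0808 at 24 h. Every gill library of 24 h lay above every gill library of 0 h, and kidney stayed at or below 2.02. The gill change exceeded the kidney change, with a difference of -3.62 (SE 0.41; limma adjusted p = 0.0278), and of -3.78 (SE 0.41; adjusted p = 0.0274) without kidney 0 h replicate 2.

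The second in rank rose in gill from 34.7 ± 15.8 to 341 ± 17.0 FPKM (SD, n = 3 each), with at most 0.429 in kidney (difference -3.47, SE 0.38; limma adjusted p = 0.0278). The third in rank rose in gill from 2.22 ± 0.977 to 25.6 ± 1.30 FPKM (SD, n = 3 each), with 0.211 to 1.49 in the kidney libraries (difference -2.94, SE 0.41; limma adjusted p = 0.0427). The fourth in rank began at a similar low level in both tissues. It was 0.375, 0.359 and 0.375 FPKM in gill at 0 h, 6.84, 7.99 and 6.67 in gill at 24 h, and between 0.180 and 0.368 in the 6 kidney libraries. Its gill libraries of 24 h stood apart from all 9 other libraries (difference -2.58, SE 0.27; limma adjusted p = 0.0278). Being tested required this, as only these libraries reached FPKM 1.

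Kidney also expressed 3 of the 8, at an FPKM of 1 or more in all 12 libraries. The eighth in rank rose in gill from 26.6 ± 1.25 to 71.7 ± 10.6 FPKM, while the kidney levels were 42.7 ± 3.56 and 43.0 ± 0.902 (SD, n = 3 each). Gill thus passed from below kidney to above it, and kidney changed by 0.01 on the log2 scale (SE 0.13). The seventh in rank was at 3.32 ± 0.216 FPKM in gill and 3.00 ± 0.287 in kidney at 0 h, and at 12.8 ± 0.879 in gill and 3.26 ± 0.362 in kidney at 24 h (SD, n = 3 each). Of these it was the one whose tissues were not called as different at 0 h (limma adjusted p = 0.665). The fifth in rank rose in gill from 19.0 ± 3.82 to 56.1 ± 4.96 FPKM, with 4.86 ± 1.48 and 3.14 ± 0.185 in kidney (SD, n = 3 each). Its kidney change of -0.47 was not called (limma adjusted p = 0.35, unadjusted p = 0.0431). The kidney libraries of the times did not overlap, with lower values at 24 h.

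**Figure D3:**
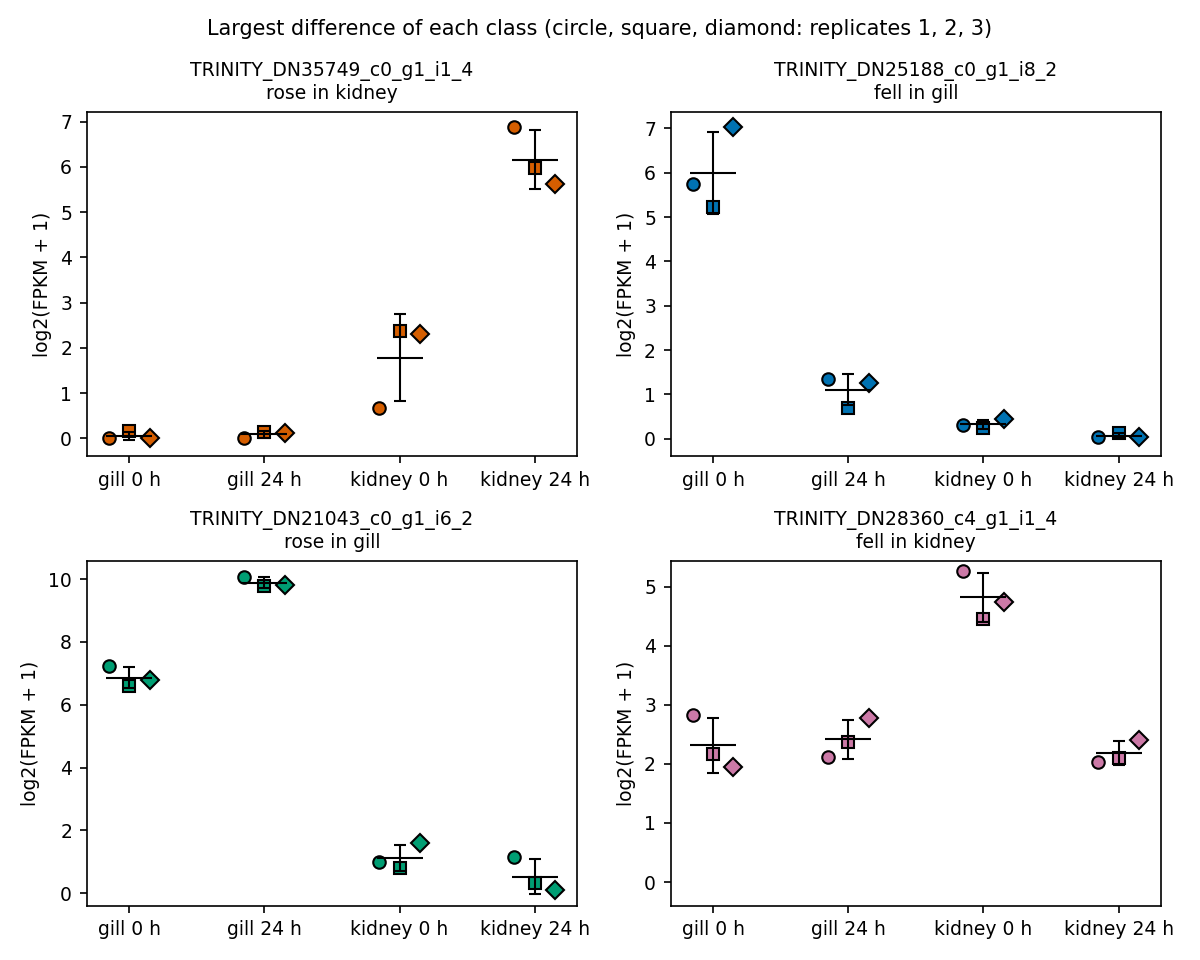
Level in every library of the transcript with the largest difference in each class, as log2(FPKM + 1) by group. Circles, squares and diamonds are replicates 1, 2 and 3, and the bars give the mean and SD of 3 libraries on that scale. In each panel the libraries of the tissue named in its title do not overlap between 0 h and 24 h, and the change of the other tissue was not called, although in the panel for a fall in gill the kidney libraries of the times do not overlap either.

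Only 4 transcripts fell in kidney. TRINITY_DN28360_c4_g1_i1_4 had an FPKM of 37.5, 20.9 and 25.7 in kidney at 0 h and of 3.10, 3.29 and 4.31 at 24 h. In gill it was 6.12, 3.47 and 2.86 at 0 h and 3.32, 4.16 and 5.82 at 24 h. Kidney fell into the range of gill, whose libraries of the 2 times overlapped. The difference was -2.74 (SE 0.40; limma adjusted p = 0.0453), and -2.93 (SE 0.39; adjusted p = 0.0330) without kidney 0 h replicate 2. The next 2 in rank were listed at 0 in all 6 gill libraries. The second was 4.59, 2.27 and 4.63 FPKM in kidney at 0 h and listed at 0 in all 3 kidney libraries of 24 h. The third was 4.55, 4.96 and 4.82 at 0 h and 0.531, 0.335 and 0 at 24 h. These 2 transcripts were thus at or near the floor in 9 of 12 libraries, at levels where the added 1 FPKM weighs on the difference (-2.23 and -2.19). Only their 3 kidney libraries of 0 h reached FPKM 1, so being tested required those to stand apart. The fourth in rank had 15.5 ± 2.06 and 24.9 ± 2.89 FPKM in gill, and 17.7 ± 3.08 in kidney at 0 h (SD, n = 3 each), and 8.03, 7.77 and 9.27 in kidney at 24 h. The tissues were not called as different at 0 h (limma adjusted p = 0.492) and stood apart at 24 h (4.43e-05), while its gill change of 0.65 missed the threshold (limma adjusted p = 0.116).

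Across the 38, most reached an FPKM of 1 in 1 tissue only. In 22 of them 1 tissue stayed below an FPKM of 1 in all 6 of its libraries (10 in gill, 12 in kidney), as in 16.9% of all tested transcripts, and in 6 the other tissue was listed at 0 throughout. For these 22 the difference between the changes on the log2(FPKM + 1) scale is mostly the change of the tissue that reached FPKM 1. Several of the 38, in all 4 classes, reached FPKM 1 only in the 3 libraries of the group where they were high. They were ranks 2, 4, 6, 10 and 11 of those that rose in kidney. In gill they were ranks 3, 5 and 6 of those that fell and ranks 4 and 6 of those that rose. Of those that fell in kidney they were ranks 2 and 3. For these transcripts the level required for testing set the libraries of the high group apart in advance. FPKM was at least 1 in every library for 9 of the 38, against 37.4% of all tested transcripts. The highest group mean of a transcript had a median of 21.3 FPKM over the 38 and of 3.68 over all tested transcripts. A transcript low in all groups cannot show a large difference on this scale, so high levels were favoured by the choice. The added 1 FPKM also narrows the spread of libraries near 0. These counts and levels are thus a description. In a test chosen after seeing the data, of the 48461 transcripts that reached FPKM 1 in 3 or more libraries of each tissue, limma called 0 (0% of those tested), with 3608 unadjusted p-values under 0.05 and a smallest adjusted p of 0.0984. Of the 38, 11 were in that test.

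Kidney and gill were called as different at 0 h in 26 of the 38 and at 24 h in 31, where the shares over all tested transcripts were 29.3% and 30.7%. They differed at both times in 19 of the 38, at 24 h only in 12 and at 0 h only in 7, against 21.8%, 8.91% and 7.51% of all tested transcripts. These comparisons share libraries with the test that chose the 38 and are a description. In 5 of the 19 the tissue order turned between the times. The fitted changes of the tissues had opposite signs in 23 of the 38, but only in 7 were both of at least 0.5 on the log2 scale. In the tissue in which they were not called, 8 of the 38 had an unadjusted limma p under 0.05. Of all 75716 tested transcripts, 8629 had such a p for the gill change and 10217 for the kidney change. No share over all tested transcripts is given for turned orders or opposite signs. Both were favoured by the choice, since changes of the same direction partly cancel in the difference, so these counts are a description.

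The FPKM ranges of the times were separate in gill for 26 of the 38 transcripts, in kidney for 22, and in both for 10. Over all tested transcripts these shares were 21.2%, 15.7% and 4.28%. These ranges come from the libraries of the test that chose the 38, so separate ranges were favoured and the counts are a description. No source used here explains the number that ends the ID. It was 1 in 9 of the 13 that rose in kidney and 2 in 9 of the 13 that fell in gill. Of all tested transcripts, 20472 end in 1 and 17437 in 2. Levels were also averaged in SD units over the 12 libraries. Those ending in 1 were highest in kidney 24 h replicates 3 and 2 and gill 24 h replicate 2. Those ending in 2 were highest in gill 0 h replicates 1 and 3 and gill 24 h replicate 3. With a term added for the libraries highest for each ending, limma called 16 transcripts, of which 11 were among the 38. Whether the ending and the classes share a cause was not tested. Of tested transcripts, 0.0635% of those ending in 1, 0.0746% of those ending in 2, 0.0212% of those ending in 3 and 0.0423% of those ending in 4 were called.

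The calls lay close to the threshold of 0.05. Limma adjusted p-values of the 38 ran from 0.0278 to 0.0453, and 15 of the 38 shared the highest value. The last transcript inside, with a difference of 2.48 (SE 0.37), went from 0.519 to 4.41 FPKM in kidney and from 0.988 to 0.285 in gill as group means. The first outside (2.66, SE 0.40; limma adjusted p = 0.0530) went from 1.84 to 6.81 in kidney and from 1.64 to 0.158 in gill. Both share the pattern of a kidney gain with a lower gill level, and the step between them is small. With a replicate block joining gill and kidney of a time, limma called none of the 38, with a smallest adjusted p of 0.0745. The labels do not say whether same numbers mark the same fish.

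Without kidney 0 h replicate 2, limma called 69 transcripts (0.0911% of those tested), 39 with the kidney change above and 30 below. Of the 38, 32 were among them, which is 84.2% of the 38 and 46.4% of the 69. The other 6 had adjusted p-values between 0.0523 and 0.0567. All 38 kept their sign, which was likely given their choice, with differences 0.90 to 1.12 times those with all 12 libraries. The 4 transcripts that fell in kidney and were called with all libraries were all among the 69. In this fit 14 transcripts were called in both tissues, where with all 12 libraries none of the 38 was. In 13 of the 14 the tissues moved in opposite directions: gill fell and kidney rose in 9, and gill rose and kidney fell in 4. The 14 were chosen for a difference between the changes, in which changes of the same direction partly cancel. Opposite directions were thus favoured by the choice, and these counts are a description.

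Of those 13, 3 were among the 38, namely the last 2 in rank that rose in kidney and the last that fell in kidney. Without kidney 0 h replicate 2 their gill changes were -0.72, -0.80 and 0.65 (limma adjusted p = 0.0272, 0.0159 and 0.0348) and their kidney changes 0.99, 0.87 and -1.11 (0.0127, 0.0159 and 0.00858). The gill changes themselves were the same with all 12 libraries; all 4 groups share 1 estimate of the spread. The strongest of the 13 by absolute difference had 2.48, 2.76 and 1.66 FPKM in gill at 0 h and 0.437, 3.09e-10 and 0 at 24 h. In kidney it had 0 and 1.06e-07 in replicates 1 and 3 of 0 h, 1.82 in replicate 2, and 2.51, 1.17 and 2.24 at 24 h. It was called at a difference of 3.07 without replicate 2 (limma adjusted p = 0.0308) and at 2.57 was not called with it (0.173).

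**Figure D4:**
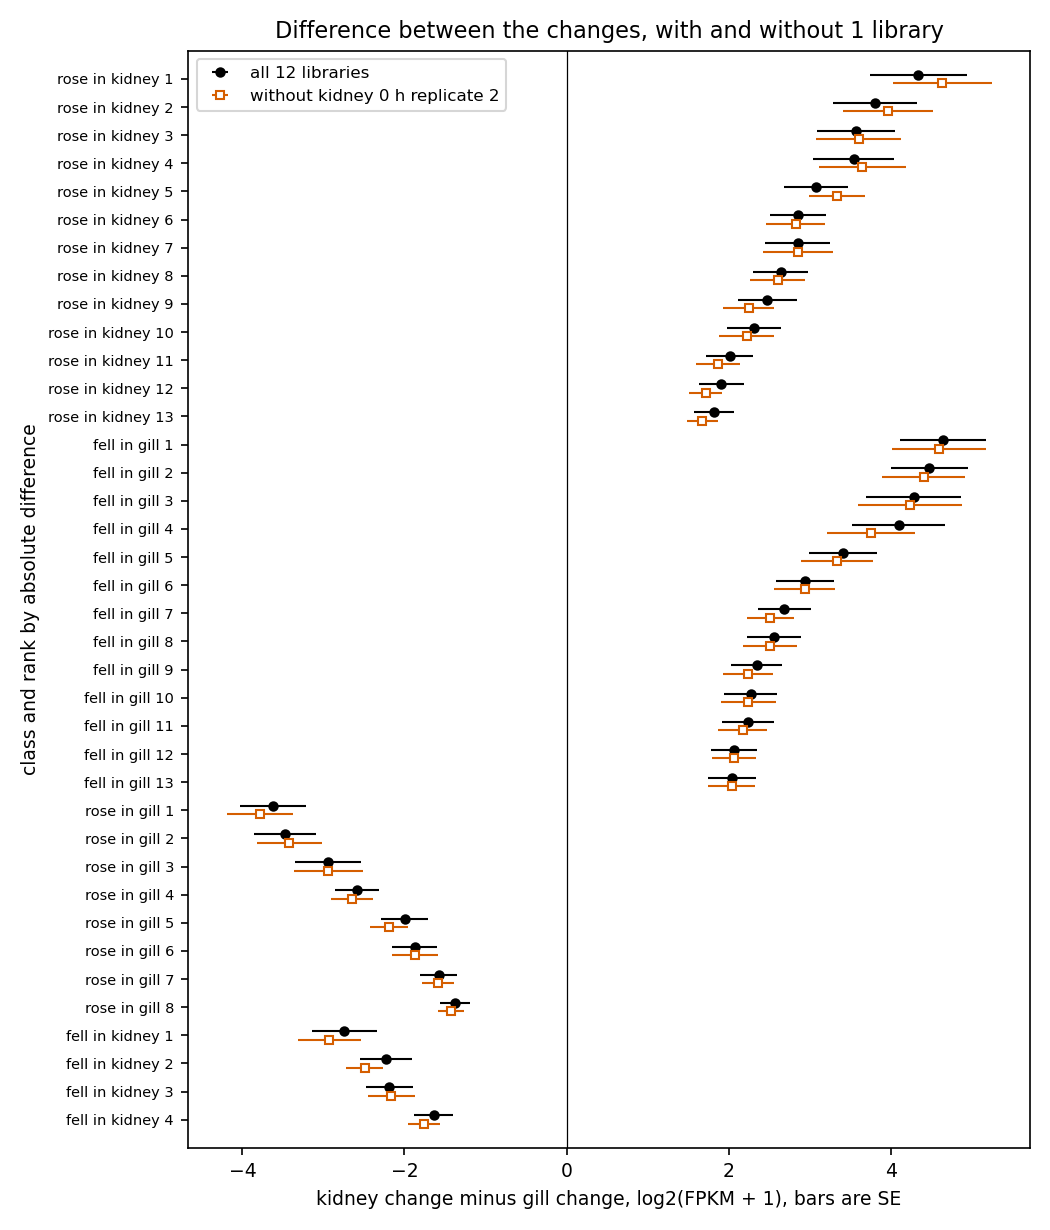
Kidney change minus gill change of the 38 transcripts on the log2(FPKM + 1) scale, with all 12 libraries (filled circles) and without kidney 0 h replicate 2 (open squares); bars are the SE. For 37 of the 38 the values lie within the smaller SE of each other. No transcript crosses 0, which was likely because the 38 were chosen for large differences.

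Other libraries moved the count of called transcripts more. Without gill 0 h replicate 2 limma called 452 (0.597% of those tested), 404 with the kidney change above and 48 below, and all 38 were among them, which is 8.41% of the 452. Leaving out gill 0 h replicate 1 or 3 gave 1 and 2 calls. For gill 24 h replicates 1, 2 and 3 the counts were 0, 1 and 0. Kidney 0 h replicate 1 or 3 left out gave 11 and 0, and kidney 24 h replicates 1, 2 and 3 gave 12, 0 and 11. The 4 counts of 0 had 5347 to 7199 unadjusted p-values under 0.05. Each of the 38 was called in 1 to 6 of these 12 repeats, and all 38 kept their sign in every one. As the 38 were chosen for large differences in these libraries, a change of sign was unlikely.

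Of the 452, 353 fell in gill with no call in kidney, and 340 of these were not among the 38. Kidney was below an FPKM of 1 in all 6 libraries in 310 of the 340. Their median FPKM was 21.8 and 14.9 in gill 0 h replicates 1 and 3, 2.07 in gill 0 h replicate 2, and 1.29, 1.69 and 0.916 in gill 24 h replicates 1 to 3. In every kidney library the median was 0. Gill 0 h replicate 2 was below both other gill libraries of 0 h in 338 of the 340, and at or below the highest gill library of 24 h in 166. This group of transcripts, most of them below an FPKM of 1 in every kidney library, was thus high in 2 gill libraries of 0 h. In the other gill library of 0 h it was near the 24 h level. Because gill 0 h replicate 2 was left out, these transcripts were in part chosen for its low level in them, and their levels are a description.

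**Figure D5:**
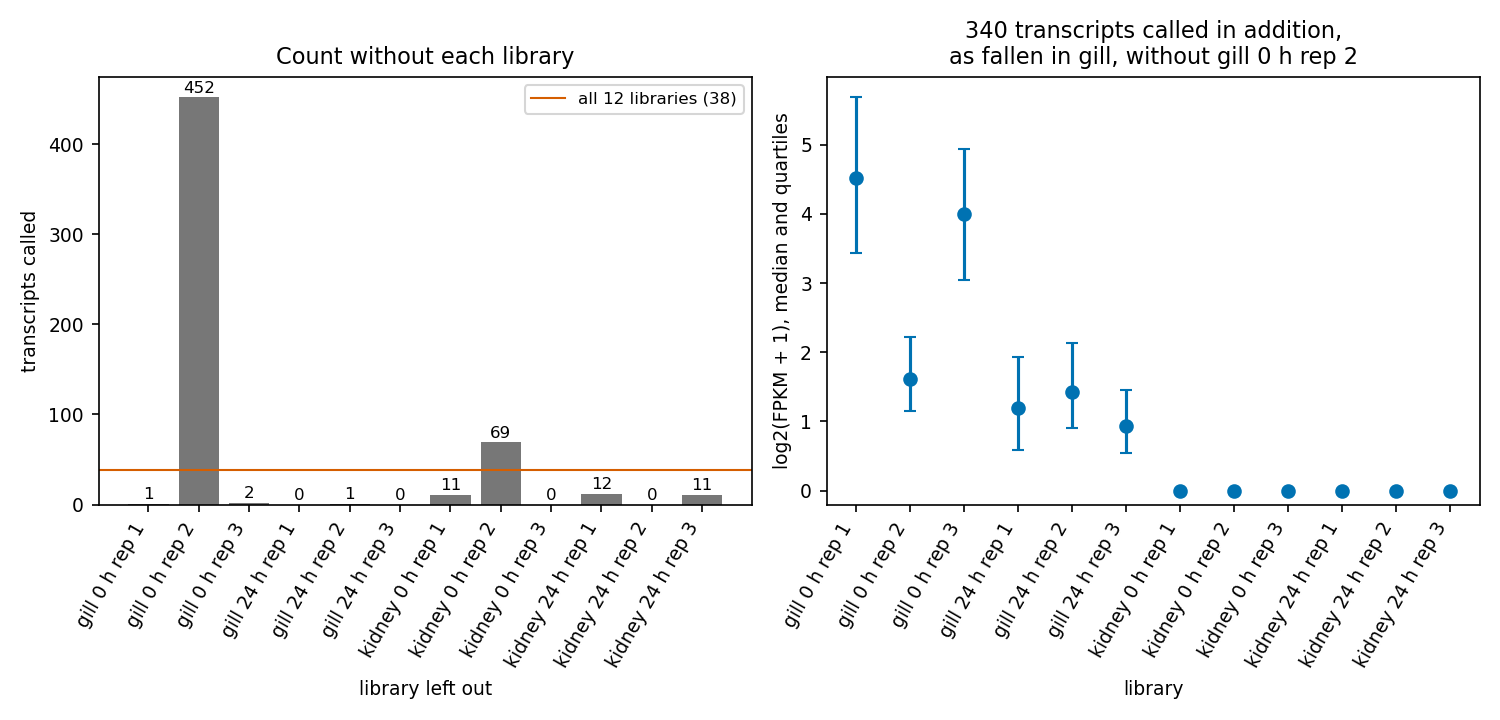
Left, number of transcripts called when each library is left out, with the count of all 12 libraries as a line. Right, median and quartiles of log2(FPKM + 1) per library for the 340 transcripts called in addition, as fallen in gill, without gill 0 h replicate 2: gill 0 h replicates 1 and 3 are high, replicate 2 lies near the gill libraries of 24 h, and the kidney libraries are at 0.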

How the data were processed

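Total RNA from gill and kidney was extracted with TRIzol and sequenced, per the labels' protocols, and reads were trimmed with Trimmomatic, per the submitters' processing notes. No source used here names the aligner, assembly settings or counting software. Per the file headers, the authors deposited FPKM of each library for 84875 transcripts with assembly IDs; read totals are unknown, so no interval per value is given. Relative depth was estimated from the commonest ratio of low values between libraries over 7116 transcripts at or near 0 in 6 or more libraries. Exact zeros are given as listed at 0.

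From these values log2(FPKM + 1) was computed, transcripts that reached FPKM 1 in 3 or more of 12 libraries were kept (89.2%), and 1 model of 4 group means was fitted to all 12 libraries with limma 3.58.1 in R 4.3.3 (eBayes with a mean-variance trend, 8 residual degrees of freedom). The contrast was (kidney 24 h minus kidney 0 h) minus (gill 24 h minus gill 0 h). P-values are two-sided and Benjamini-Hochberg adjusted over all 75716 tested transcripts; calls are at an adjusted p under 0.05. Changes within each tissue and tissue differences at each time came from the same fit. Fold changes on this scale understate changes of low transcripts. The fit was also run on simulated data with known differences, and the outcome is not given here. IDs are printed for the transcript with the largest absolute difference in each class; others are given by rank in their class. The members, rules and alternatives were chosen with earlier results of these data known. Repeats without a library kept the same tested transcripts.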

Additional observations from a re-analysis of the deposited data

Results flagged for a closer look

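The change over 24 h differed between kidney and gill in 38 transcripts by limma, which is a difference between tissues under the same contrast, and it was tested as such. The difference of the first 3 in rank of each class passed the test in the fit of group means without a block. Rank 2 of those that rose in kidney reached FPKM 1 only in the 3 libraries of its high group. So did rank 3 of those that fell in gill and ranks 2 and 3 of those that fell in kidney. For these transcripts the level required for testing set the high libraries apart in advance, so passing the test was favoured. With a replicate block joining gill and kidney of a time, limma called none of the 38. The labels do not say that same numbers mark the same fish. The kidney change minus the gill change of the first 3 in rank of each class is given here on the log2 scale. Among those that rose in kidney it was 4.34, 3.80 and 3.57. Among those that fell in gill it was 4.64, 4.47 and 4.28. Among those that rose in gill it was -3.62, -3.47 and -2.94, and among those that fell in kidney it was -2.74, -2.23 and -2.19. No explanation for these differences was tested.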

How the results depend on the processing

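All 38 transcripts kept the sign of their difference under each of the 29 alternatives in which they were tested. The 38 were chosen for large differences in these same libraries, so a change of sign was unlikely from the start. Settings that changed only the filter or the spread estimate, or added a block by replicate number, left the fitted differences as they were. With library weights the differences were 0.916 to 1.09 times those of the main fit. With a block by the number in the column name they were 0.920 to 1.15 times those. The count of calls moved. It was 1 (1 above, 0 below) with a pseudocount of 0.1, 6 (5 and 1) with 0.5 and 52 (33 and 19) with 2. It was 37 with no filter and 62 (42 and 20) among transcripts that reached FPKM 5 in 3 or more libraries. Median-ratio scaling gave 45 (25 and 20), quantile normalization 49 (29 and 20) and equal totals set to their mean 40; median-ratio and quantile scaling moved the median difference of all tested transcripts from 0.09 to -0.01 and -0.02. Limma without the trend gave 31, robust limma 30 (24 and 6), library weights 106 (62 and 44) and an added term for each ID number's leading libraries 16 (12 and 4). Leaving out both 0 h libraries of replicate number 2 gave 651 (509 and 142). A filter of 3 libraries in each tissue, chosen after seeing the data, gave 0 (0 and 0). Leaving out each library in turn gave 0 to 452 (0 to 404 above, 0 to 48 below). Fewer libraries or transcripts enter these last settings; the cause of the other moves was not tested.

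A replicate block that joined gill and kidney of a time left 0 calls by limma (0 and 0; 6422 unadjusted p-values under 0.05), a replicate block over all 4 groups 5 (3 and 2), and a block by the number in the column name 0 (0 and 0; 5870). The labels do not say that same numbers mark the same fish. Deviations of same-numbered gill and kidney libraries correlated at -0.00854 to 0.0915 at 0 h and at 0.109 to 0.137 at 24 h. Here the numbers are the replicate numbers of the labels. For replicate 3 at 24 h the column names differ, with 4 in gill and 3 in kidney. Each gill library correlated best with the kidney library of its number except gill 0 h replicate 2, a hint of pairing from the data. As the 0 h correlations were all under 0.1, the main fit did not take the numbers as a pairing. Kidney 0 h replicate 2, which stood apart, enters those correlations, so they cannot settle the question. If the numbers do pair the libraries, the fit that joins gill and kidney of a time calls none of the 38. Summing transcripts by gene was not run, as 0 rows share an ID up to the isoform number. With 3 libraries per group and unknown read totals, a call that is missing does not show equal changes.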

Other observations

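The 37 transcripts called only without kidney 0 h replicate 2 all had that library outside the range of the other 2 kidney libraries of 0 h: above both in 15 and below both in 22. In 11 it was over 3 times the higher of the others. The most abundant of these 11 had 26.3 and 26.1 FPKM in kidney 0 h replicates 1 and 3, 140 in replicate 2, and 47.6, 46.3 and 48.7 in kidney at 24 h, while gill was at 27.4 to 30.2 at 0 h and 21.5 to 23.5 at 24 h. Its difference was 1.17 without that library (limma adjusted p = 0.0260) and 0.37 with it (0.934). Another was 0 in kidney 0 h replicates 1 and 3, 25.7 in replicate 2, and 8.03, 3.89 and 4.49 at 24 h.

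Among the 11 that fell in kidney only without that library, the transcript with the largest difference had 12.7 and 11.6 FPKM in kidney 0 h replicates 1 and 3, 3.49 in replicate 2, and 0, 1.07 and 1.03 at 24 h. In gill it went from 1.09 to 2.65 at 0 h to 4.95 to 9.49 at 24 h, so that the libraries of the times did not overlap in either tissue. Its difference was -4.48 without replicate 2 (limma adjusted p = 0.0274) and -3.96 with it (0.0678). These transcripts were chosen by leaving out the library that is described, so their values are a description and were not tested further.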
